A study of Mus musculus with 6 samples.

Results

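The p53 pathway and the BCL2 family were examined as 34 genes in mouse cerebellum: the regulators of p53, genes that p53 is known to switch on, the BCL2 family of cell death regulators, and the caspases that act next to them. Members were taken by gene symbol from the array's value table, each with the probe set of highest mean among those annotated to that symbol alone. By that rule 32 of the 34 members were measured, among 22180 genes in all. Trp53, which encodes p53 itself, and Bax, which encodes a pore-forming BCL2 protein, were not analysed here.

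Total RNA came from cerebellum collected at postnatal day 7. The 3 knockout arrays carried Math1Cre together with floxed Crebbp on both alleles (Math1Cre::CrebbpFl/Fl), and the 3 wild-type arrays carried Math1Cre with wild type Crebbp, so both groups hold the Cre transgene and neither holds a sample free of it. Math1 (Atoh1) drives Cre in the granule neuron lineage, while the RNA is from whole cerebellum, which also holds cells outside that lineage. The values do not show which cells lost Crebbp. In such bulk RNA fewer cells of a type and less RNA per cell cannot be told apart. The labels leave unsaid whether each array had its own animal. The p-values set each difference against the spread between arrays, and may not speak for separate animals.

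p53 is a transcription factor that is held at a low level by MDM2 and rises after DNA damage and other stress, when it switches on genes of cell cycle arrest, repair and cell death. CREBBP and its relative EP300 are known to acetylate p53 and to act as its coactivators. BCL2 proteins decide whether mitochondria release cytochrome c: survival members such as BCL2, BCL-XL and MCL1 restrain the effectors BAX and BAK, and BH3-only proteins such as PUMA, NOXA and BIM relieve that restraint. In the young cerebellum, dividing granule neuron precursors are sensitive to p53-dependent death after DNA damage, and BAX is known for its part in the death of surplus neurons.

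Many p53 targets carry a p53 element near a start of transcription, made of a pair of decamers of purines, a C, letters A or T, a G and pyrimidines. RefSeq promoter windows (GRCm38.p6, 250 bases before to 50 bases after a start) were found for 28 of the 34 members. Bik, Perp, Pmaip1, Tnfrsf10b, Trp53inp1 and Zmat3 had no entry. The windows were searched for the p53 decamer pair, with 0 or 1 base between the decamers, the central C and G of each kept and up to 3 mismatches elsewhere; the decamer reads the same on both strands. A match was present for 7 of the 28 members (25.0%) and for 3.27% of all 27025 genes with a window. The list was chosen to hold known p53 targets, beside p53 regulators, BCL2 family genes and caspases, so this share describes the choice. The 5 measured members with a match are shown so that their letters can be set beside their values, with the element in capitals and 20 bases on each side in lower case, 5′ to 3′ on the strand of the gene.
Cdkn1a (chr17:29090908-29090967, plus strand): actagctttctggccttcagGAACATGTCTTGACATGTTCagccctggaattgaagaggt
Ccng1 (chr11:40755442-40755501, minus strand): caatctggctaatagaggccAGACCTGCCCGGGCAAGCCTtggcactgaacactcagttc
Bbc3 (chr7:16309466-16309525, plus strand): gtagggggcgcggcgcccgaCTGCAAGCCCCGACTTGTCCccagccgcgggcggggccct
Sesn1 (chr10:41887246-41887305, plus strand): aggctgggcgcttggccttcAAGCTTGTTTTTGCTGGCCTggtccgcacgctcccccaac
Aen (chr7:78895917-78895976, plus strand): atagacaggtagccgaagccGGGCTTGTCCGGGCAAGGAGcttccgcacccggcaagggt

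The elements of Cdkn1a and Ccng1 departed from the consensus by 1 base, and those of Bbc3, Sesn1 and Aen by 3. In Cdkn1a the element lay from position -51 to -32 relative to the first of its annotated starts. A match is a description of these letters and says nothing of binding in this tissue. Sequence outside the windows was not searched, so a window without a match does not show that a gene lacks an element.

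The comparison asks whether losing this p53 coactivator from the granule lineage came with a change in p53 targets or cell death genes. Crebbp itself read 11.46, 11.42 and 11.32 on the knockout arrays, against 11.96, 11.99 and 11.90 on the wild-type arrays (log2 expression). The groups lay apart, at 11.40 ± 0.07 in knockout and 11.95 ± 0.05 in wild type (SD, n = 3 each). Its difference, always given as knockout minus wild type in log2 units, was -0.56 (limma adjusted p = 0.000354); limma fits all genes together and tests each against the spread between arrays. Whether its probes lie in the deleted part is not given in the sources used. Markers of granule neurons and Purkinje cells had mean levels of 9.12 to 10.03 and 10.32 to 10.66 over the 6 arrays, above the upper quartile of all probe sets (8.86). The mean of 7 granule neuron markers was 9.12 to 9.36 in knockout and 9.80 to 10.03 in wild type, and 5 of the 7 fell. The mean of 8 markers of granule neuron precursors was 10.51 to 10.61 in knockout and 10.57 to 10.62 in wild type, with 1 that rose and 3 that fell. For 5 Purkinje cell markers the mean was 10.49 to 10.66 in knockout and 10.32 to 10.41 in wild type. All 5 had a difference above 0, and 1 rose. For 6 Bergmann glia and astrocyte markers it was 11.49 to 11.60 and 11.35 to 11.45. Of these 5 had a difference above 0 and 1 below, and 2 rose. Of 5 inhibitory interneuron markers, 2 had a difference above 0 and 3 below, and 0 passed. The part of these lists in the results that follow was not tested.

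Few of the p53 and BCL2 genes passed the test once p-values were adjusted over all genes. With limma and an adjusted p under 0.05 over all genes, 1 of 32 members fell (Eda2r), 0 rose and 31 did not pass. That is 3.12% of members, where 6.67% of all genes tested passed (2.72% rose and 3.94% fell). At an unadjusted p under 0.05, 5 members lay higher and 4 lower in knockout, 28.1% of members against 20.4% of all genes. The groups did not overlap for 8 members, which is 25.0% of members and 25.0% of all genes tested. Knockout lay above in 4 of them (11.8% of all genes) and below in 4 (13.1% of all genes). Read against these shares, the members' counts were near the background.

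The differences of the members were small and spread around 0. The median difference was 0.02 (all genes -0.003), with 18 members above 0 and 14 below. Without regard to sign, the median was 0.09 for the members and 0.09 for all genes, and the 90th percentile was 0.26 for the members and 0.27 for all genes. For 29 of the 32 members the 95% confidence interval lay wholly within 0.5 log2 units of 0, as it did for 19422 of all 22180 genes. The median half-width of the interval was 0.16 for the members and 0.19 for all genes. The exceptions among the members were Eda2r, Tnfrsf10b and Perp. Crebbp itself differed by -0.56, so a limit of 0.5 is not a tight one here.

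**Figure D1:**
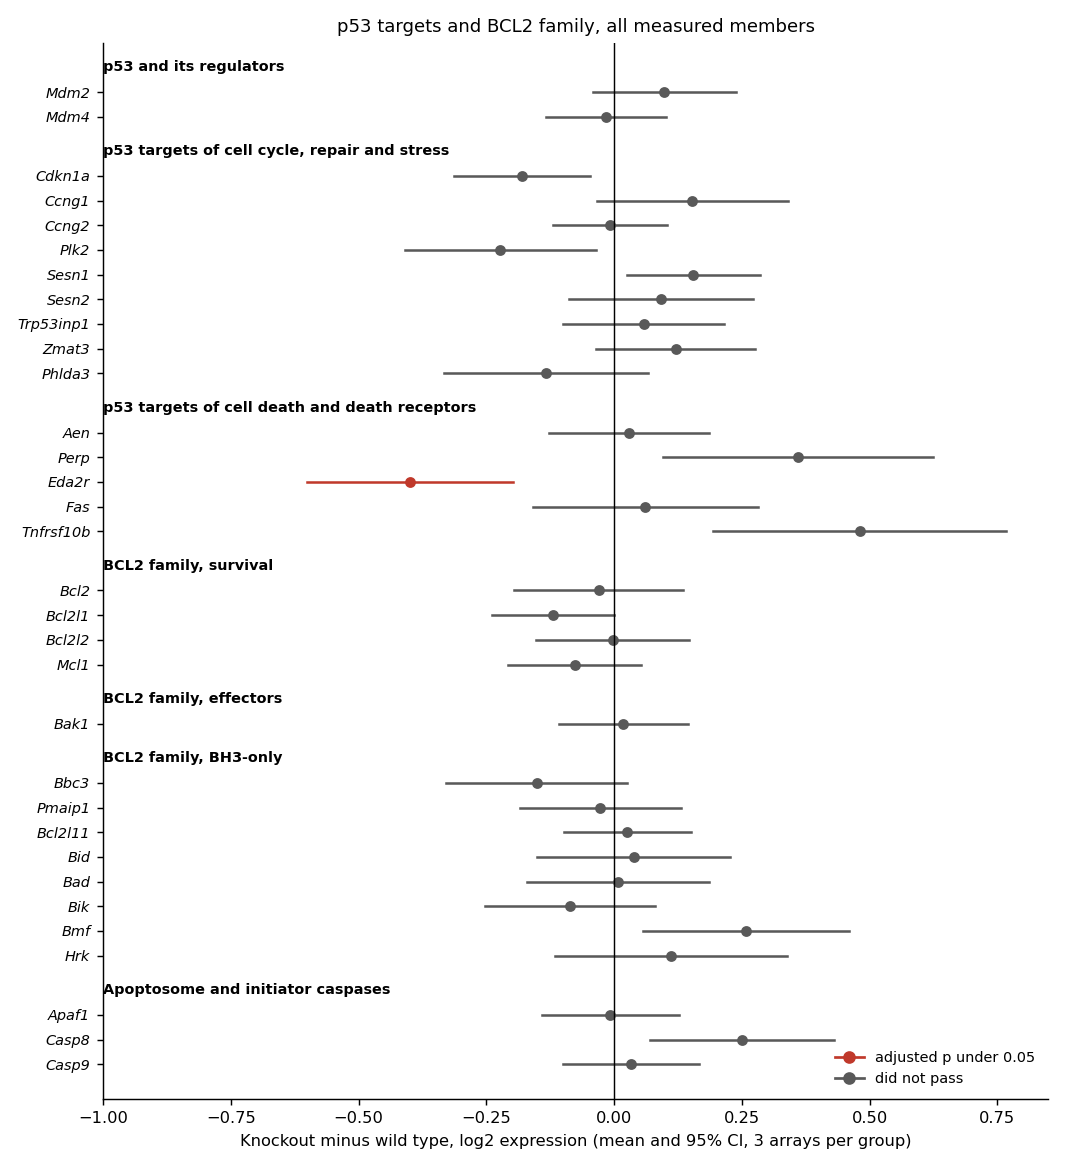
Difference between knockout and wild type for the 32 measured members, grouped by role (horizontal axis: knockout minus wild type, log2; points: means; bars: 95% confidence intervals; 3 arrays per group). Eda2r, in red, is the member that passed, at -0.40, and Tnfrsf10b lies farthest to the right at 0.48.

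**Figure D2:**
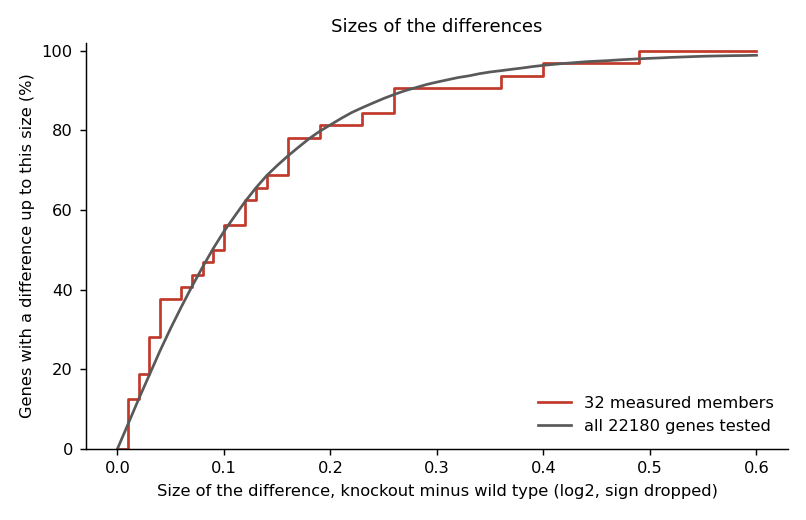
Share of genes (vertical axis, %) whose difference is no larger than the value on the horizontal axis (log2, sign dropped), for the 32 members (red) and all 22180 genes tested (grey). The 2 curves run close together, with a median of 0.09 in both.

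MDM2 and MDM4 are the main brakes on p53. Mdm2, which encodes the ubiquitin ligase that p53 switches on and that in turn removes p53, read 9.80, 9.80 and 9.82 on the knockout arrays and 9.59, 9.83 and 9.70 on the wild-type arrays. The 3 knockout values lay close together inside the range of the wild-type values. Its difference was 0.10 (95% confidence interval -0.04 to 0.24, limma adjusted p = 0.439). Mdm4, a relative that blocks p53's activating domain, had a difference of -0.02 (95% confidence interval -0.13 to 0.10).

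Among the 9 p53 targets of cell cycle, repair and stress, 0 passed in limma, 3 had an unadjusted p under 0.05, and the median difference was 0.06. Cdkn1a encodes p21, the cyclin-dependent kinase inhibitor through which p53 halts the cell cycle. It read 10.15, 10.11 and 10.21 on the knockout arrays, against 10.37, 10.41 and 10.22 on the wild-type arrays. Every knockout value lay below every wild-type value, but knockout replicate 3 and wild-type replicate 3 were nearly level. Its difference of -0.18 (SE 0.06, 95% confidence interval -0.31 to -0.05) did not pass (limma adjusted p = 0.110). It passed without wild-type replicate 3, at -0.24 (limma adjusted p = 0.0468), and had adjusted p-values up to 0.490 under the other alternatives.

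The other cell cycle and stress targets with an element lay on the other side of 0. Ccng1, the gene of cyclin G1, read 10.31, 10.52 and 10.47 in knockout and 10.24, 10.46 and 10.14 in wild type. The groups overlapped through the high wild-type replicate 2, and the difference was 0.15 (limma adjusted p = 0.357). Sesn1 encodes a sestrin, a stress protein that restrains the growth kinase complex mTORC1; its values were 10.12, 10.26 and 10.25 in knockout and 10.04, 10.14 and 9.99 in wild type. Wild-type replicate 2 lay just above knockout replicate 1, and the difference of 0.15 did not pass (limma adjusted p = 0.162). Of the 5 measured members with a promoter element, 3 had a difference above 0 and 2 below, and 0 passed.

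Plk2, a polo-like kinase gene known in neurons for tuning synapses, had the lowest difference of this group. It read 9.44, 9.22 and 9.14 on the knockout arrays and 9.45, 9.61 and 9.41 on the wild-type arrays, a difference of -0.22 (limma adjusted p = 0.164). Knockout replicate 1 lay within the wild-type values and the other 2 below them. The remaining members had differences of 0.12 for Zmat3, which encodes an RNA-binding zinc finger protein, and 0.09 for the sestrin gene Sesn2. Trp53inp1, which encodes a stress protein that enhances p53 activity, differed by 0.06. Phlda3, which encodes an inhibitor of AKT signalling, differed by -0.13, and the unusual cyclin gene Ccng2 by -0.01.

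The 5 p53 targets of cell death and death receptors held the member that passed and the 2 widest differences among those that did not. Eda2r encodes a receptor of the tumour necrosis factor receptor family for an ectodysplasin ligand. It read 6.82, 6.77 and 6.59 on the knockout arrays, against 7.07, 7.11 and 7.20 on the wild-type arrays. The groups lay apart, with knockout replicate 3 lowest. Eda2r fell to 6.73 ± 0.13 in knockout, against 7.13 ± 0.07 in wild type (SD, n = 3 each), a difference of -0.40 (SE 0.09, 95% confidence interval -0.60 to -0.20, limma adjusted p = 0.0304), or 0.76-fold.

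The call of Eda2r depended on single arrays and on the fit. It held without knockout replicate 1 or 2 (limma adjusted p = 0.0491 and 0.0482). Without knockout replicate 3 the difference was -0.33 (limma adjusted p = 0.0756), and without wild-type replicate 1, 2 or 3 it was -0.43, -0.41 and -0.36 (limma adjusted p = 0.0792, 0.0838 and 0.0853). With no trend in limma's prior variance the adjusted p was 0.0549. Both Eda2r and the mean of the oligodendrocyte lineage markers were lowest on knockout replicate 3. On the other arrays their orders differed. Eda2r read 6.82 and 6.77 on knockout replicates 1 and 2, where the marker mean was 9.19 and 9.49. On wild-type replicates 1, 2 and 3 Eda2r read 7.07, 7.11 and 7.20, and the marker mean was 9.69, 9.59 and 9.57. That mean, of 6 markers, ran from 8.88 to 9.49 on the knockout arrays and from 9.57 to 9.69 on the wild-type arrays, all 6 had a difference below 0, and Mog alone of them passed. Their part in the result was not tested. The RefSeq window of Eda2r, the promoter of the member that passed, holds no p53 decamer pair within the 3 mismatches (chrX:97377160-97377459, minus strand):
Eda2r: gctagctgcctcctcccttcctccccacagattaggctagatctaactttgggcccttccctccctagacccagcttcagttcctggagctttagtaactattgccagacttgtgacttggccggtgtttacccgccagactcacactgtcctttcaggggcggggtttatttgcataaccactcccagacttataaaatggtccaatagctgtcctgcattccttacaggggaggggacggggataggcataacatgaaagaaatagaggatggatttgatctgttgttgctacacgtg

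Tnfrsf10b, the mouse receptor for the death ligand TRAIL, had the largest difference of all members. Its values were 6.84, 7.14 and 7.21 on the knockout arrays and 6.35, 6.69 and 6.71 on the wild-type arrays. Every knockout value lay above every wild-type value, and replicate 1 was the lowest in both groups. Tnfrsf10b and Eda2r both lay below the median of all probe sets (7.27) on every array, and no detection call came with their values. The difference of 0.48 (SE 0.13, 95% confidence interval 0.19 to 0.77) narrowly missed the threshold (limma adjusted p = 0.0552). It passed without knockout replicate 1, at 0.59 (limma adjusted p = 0.0396), and over all alternatives the difference ran from 0.36 to 0.59 and the adjusted p from 0.0151 to 0.237.

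Perp encodes a membrane protein of desmosomes, the junctions of epithelial cells. It read 7.90, 7.75 and 8.27 in knockout and 7.59, 7.70 and 7.55 in wild type. The groups lay apart, by little between knockout replicate 2 and wild-type replicate 2, and knockout replicate 3 was far the highest. The difference of 0.36 (SE 0.12) did not pass (limma adjusted p = 0.110), although it did without knockout replicate 2, at 0.47 (limma adjusted p = 0.0411). Without knockout replicate 3 the difference was 0.21 (limma adjusted p = 0.212).

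Markers of tissue around the cerebellum were highest on that same array. The mean of 10 choroid plexus markers was 8.56, 7.04 and 9.19 on the knockout arrays and 7.64, 7.01 and 7.07 on the wild-type arrays, and Ttr, the defining one, read 13.77, 9.19 and 13.92 in knockout and 12.30, 8.08 and 8.91 in wild type. Of the 10, all had a difference above 0 and 0 passed in limma, with 6 at an unadjusted p under 0.05. The mean of 5 meningeal and fibroblast markers was 9.33, 9.39 and 9.79 in knockout and 9.08, 9.14 and 9.23 in wild type, with 5 of 5 markers higher on every knockout array and 0 past the threshold. When the mean of the choroid plexus markers entered the fit as a covariate, the difference of Perp was 0.17. Without the 3 arrays with Ttr above 10, which leaves 1 knockout array and 2 wild-type arrays, it was 0.13. For Tnfrsf10b the same fits gave 0.54 and 0.44, and for Eda2r -0.33 and -0.38, where its call was lost (limma adjusted p = 0.172 and 0.309, the second with 1 knockout array). With the covariate, Casp8 went from 0.25 to 0.28, Cdkn1a from -0.18 to -0.23 and Phlda3 from -0.13 to -0.27, away from 0. Bmf went from 0.26 to 0.14 and Bbc3 from -0.15 to -0.08, toward 0. Choroid plexus markers were highest on knockout replicates 1 and 3. The covariate thus ran partly with genotype, and these fits cannot tell them apart. The part of the choroid plexus and meningeal markers was not tested.

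**Figure D3:**
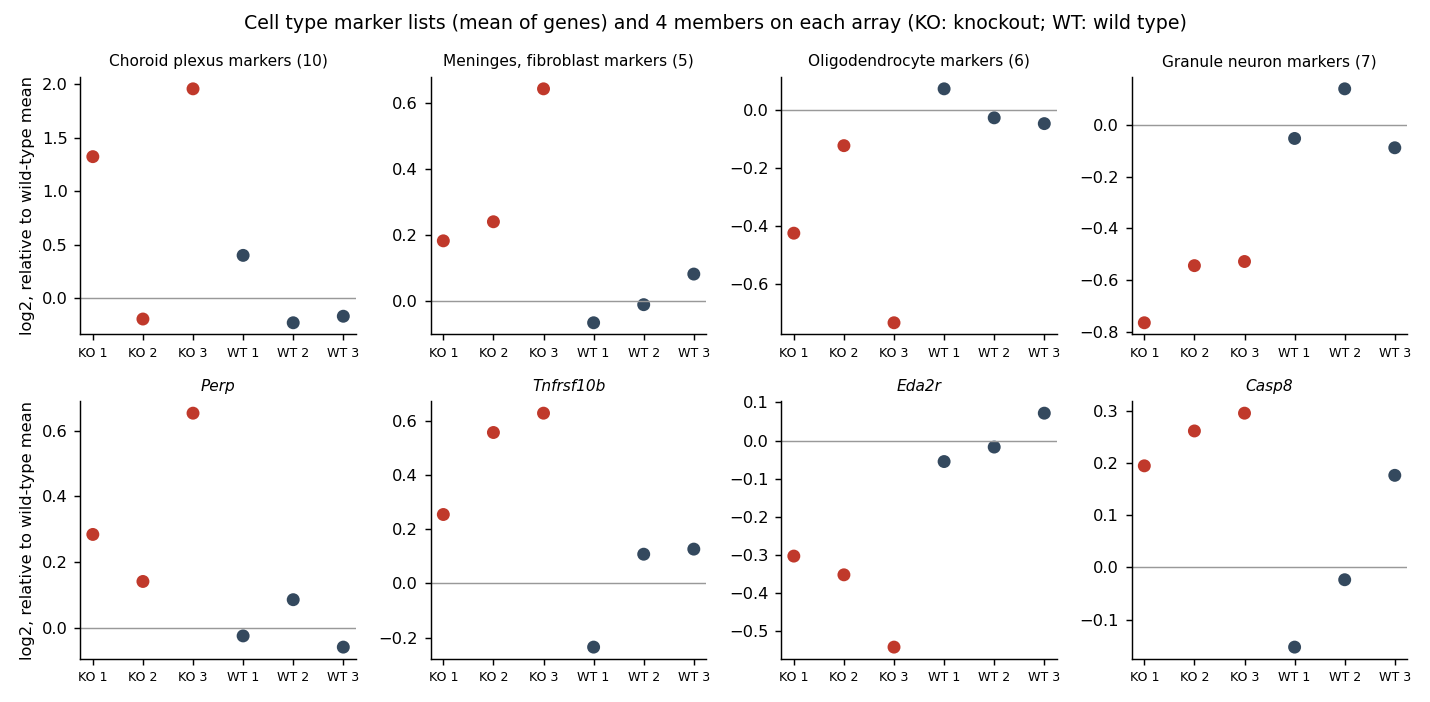
Means of 4 cell type marker lists (top) and values of 4 members (bottom) on each array, as log2 relative to the mean of the wild-type arrays; knockout in red, wild type in blue, with a separate vertical scale in each panel. Perp and both surrounding-tissue lists are highest on knockout replicate 3, and Eda2r and the oligodendrocyte list are lowest there. On the other arrays Eda2r and the oligodendrocyte list are ordered differently.

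Fas, the receptor of the Fas ligand, read 5.70 to 5.84 on the knockout arrays and 5.66 to 5.78 on the wild-type arrays. These values lie below the lower quartile of all probe sets (6.02) and carry no detection call. Aen, a nuclease gene that p53 switches on during apoptosis, differed by 0.03 (95% confidence interval -0.13 to 0.19).

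The survival genes of the BCL2 family differed by little. Of 4 measured, 0 passed in limma, 1 had an unadjusted p under 0.05, and the differences ran from -0.12 to -0.002, with 4 of 4 below 0. Bcl2 read 9.58, 9.33 and 9.31 in knockout and 9.48, 9.41 and 9.42 in wild type. Knockout replicate 1 was the highest and the other 2 knockout arrays the lowest of the 6, and the difference was -0.03 (95% confidence interval -0.19 to 0.13). A second probe set of Bcl2 differed by 0.05 (limma adjusted p = 0.894).

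Bcl2l1, which encodes BCL-XL, the survival protein known as prominent in neurons, read 8.75, 8.82 and 8.80 in knockout and 8.92, 8.94 and 8.87 in wild type. All knockout values were below all wild-type values, within a narrow range. The difference of -0.12 (SE 0.05, 95% confidence interval -0.24 to -0.00024) did not pass (limma adjusted p = 0.243). Mcl1, a survival gene with a short-lived protein, read 10.76, 10.70 and 10.58 in knockout and 10.80, 10.80 and 10.68 in wild type. The groups overlapped, with replicate 3 lowest in each, and the difference was -0.08 (95% confidence interval -0.21 to 0.05). A second probe set of Mcl1 differed by 0.01. Bcl2l2, which encodes BCL-W, differed by -0.0025, and the effector gene Bak1 by 0.02 (95% confidence interval -0.11 to 0.14).

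BH3-only genes start apoptosis when they are induced or released. Of 8 measured, 0 passed in limma, 1 had an unadjusted p under 0.05, 5 had a difference above 0 and 3 below, and the median was 0.02. Bmf, whose protein is known to be held at the cytoskeleton, had the highest difference: 7.49, 7.42 and 7.70 in knockout and 7.36, 7.29 and 7.19 in wild type. Knockout was above wild type on every array, and knockout replicate 3 was the highest. The difference was 0.26 (SE 0.09, 95% confidence interval 0.06 to 0.46, limma adjusted p = 0.132), and it was 0.14 with the choroid plexus covariate.

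Bbc3 encodes PUMA, the BH3-only protein most directly induced by p53, and read lower in knockout. Its values were 7.04, 7.08 and 6.91 in knockout and 7.14, 7.19 and 7.15 in wild type. Every knockout value lay below every wild-type value, by little for knockout replicate 2. All were below the median of all probe sets (7.27), and no detection call came with them. The difference of -0.15 (SE 0.08, 95% confidence interval -0.33 to 0.03) did not pass (limma adjusted p = 0.332), and it was -0.08 with the choroid plexus covariate. The 2 BH3-only genes whose groups lay apart, Bmf and Bbc3, thus stood on opposite sides of 0.

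The 6 other BH3-only genes had overlapping groups. Pmaip1, which encodes the other p53-induced BH3-only protein NOXA, was among the steadiest members, at 7.18 ± 0.03 in knockout and 7.21 ± 0.01 in wild type (SD, n = 3 each). Its values lay below the median of all probe sets (7.27) on every array and carry no detection call. Bcl2l11, the gene of BIM, which acts in neurons deprived of trophic support, stood at 8.60 ± 0.04 in knockout and 8.57 ± 0.03 in wild type (SD, n = 3 each). The differences were -0.03 for Pmaip1 (95% confidence interval -0.18 to 0.13) and 0.03 for Bcl2l11 (-0.10 to 0.15). Hrk, a BH3-only gene best known in neurons, differed by 0.11 with one of the wider intervals (-0.12 to 0.34). Bid, which caspase-8 cleaves, differed by 0.04, Bad, which growth factor signals silence, by 0.01, and Bik, which acts at the endoplasmic reticulum, by -0.09.

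**Figure D4:**
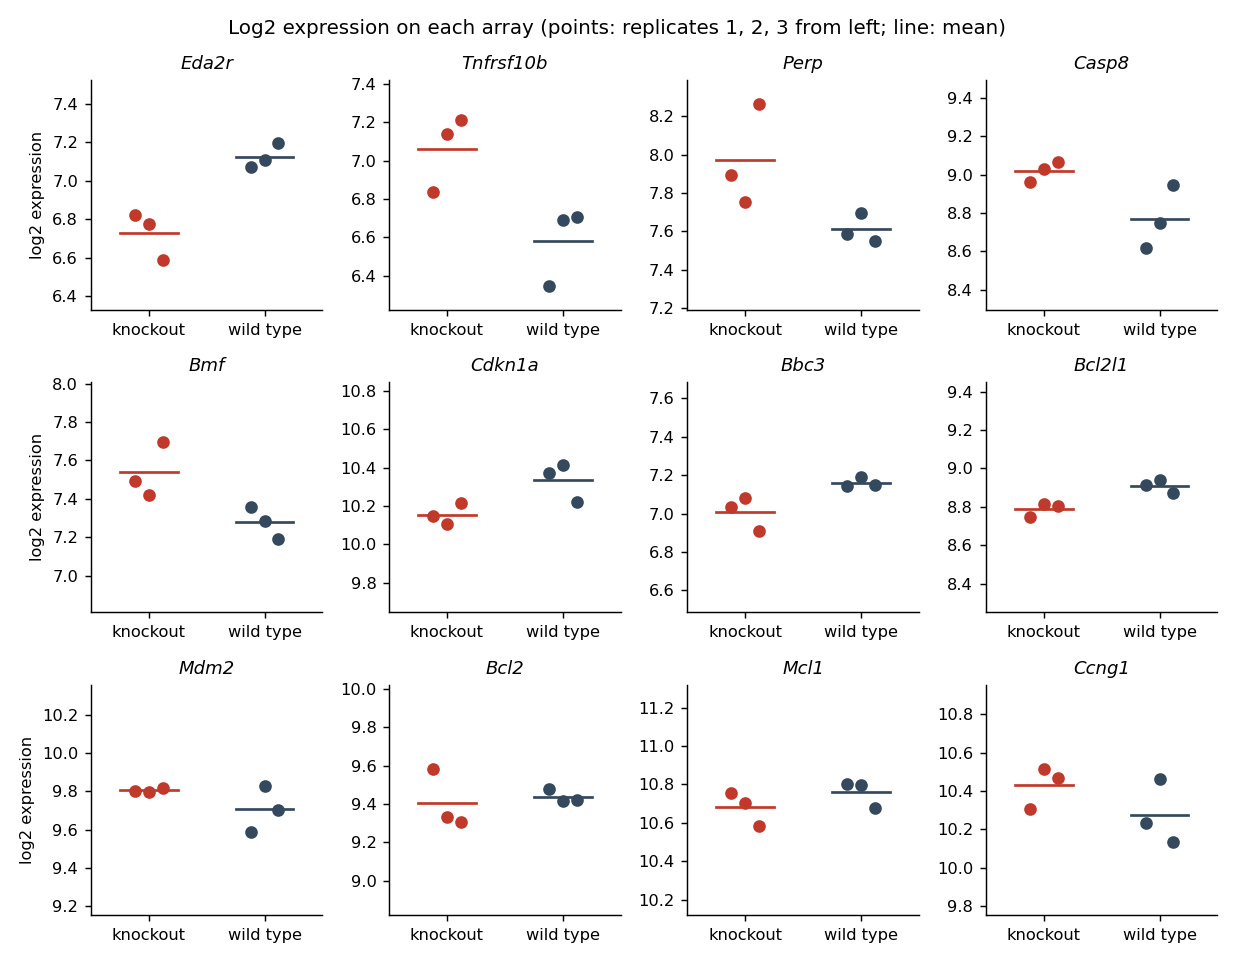
Log2 expression of 12 members on each array (points: replicates 1, 2 and 3 from left; lines: means; knockout in red at left of each panel, wild type in blue), each panel spanning 1.2 log2 units. The first 8 panels are the members whose groups do not overlap, and Mdm2, Bcl2, Mcl1 and Ccng1 show overlapping groups.

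Downstream of these proteins, APAF1 and caspase-9 form the mitochondrial arm and caspase-8 the death receptor arm. Apaf1 read 9.06 to 9.15 in knockout and 9.03 to 9.20 in wild type, a difference of -0.01 (95% confidence interval -0.14 to 0.13). Casp9 differed by 0.03 (95% confidence interval -0.10 to 0.17); the groups of both genes overlapped.

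Casp8 read 8.96, 9.03 and 9.06 in knockout and 8.62, 8.75 and 8.95 in wild type. The groups lay apart, but wild-type replicate 3 nearly reached knockout replicate 1. The difference of 0.25 (SE 0.08, 95% confidence interval 0.07 to 0.43) did not pass (limma adjusted p = 0.105). It passed without wild-type replicate 3, at 0.34 (limma adjusted p = 0.0292). The difference was 0.17 without wild-type replicate 1 (limma adjusted p = 0.325).

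Other genes of these pathways were read from lists of 64 genes, of which 56 were measured. The other 8 were not analysed here. In limma, 2 rose, 2 fell and 52 did not pass, 7.14% against 6.67% of all genes tested, with a median difference of 0.001. The groups did not overlap for 21 of the 56 (37.5%), against 25.0% of all genes tested. By list, 0 of 15 upstream regulators of p53 passed, 3 had an unadjusted p under 0.05 (20%), and 8 had groups apart (53.3%). Of 17 other p53 targets, 1 rose and 2 fell (17.6%), 6 had an unadjusted p under 0.05 (35.3%), and 7 had groups apart (41.2%). Of 5 other BCL2 family genes the 3 counts were 0. Of 19 caspases, inhibitors and adaptors, 1 rose (5.26%), 3 had an unadjusted p under 0.05 (15.8%), and 6 had groups apart (31.6%). The shares of all genes tested were 6.67%, 20.4% and 25.0%.

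The gene that rose among the caspases was Casp6, which encodes an effector caspase known for its part in axon degeneration. Its values were 8.98, 9.13 and 9.04 on the knockout arrays, against 8.61, 8.55 and 8.70 on the wild-type arrays. The groups lay well apart, at 9.05 ± 0.08 in knockout and 8.62 ± 0.08 in wild type (SD, n = 3 each). The difference was 0.43 (SE 0.06, limma adjusted p = 0.00454). It passed whichever single array was left out, and with the choroid plexus covariate, at 0.48 (limma adjusted p = 0.0176). Without the 3 arrays with Ttr above 10 the difference was 0.50, but that fit holds 1 knockout array and cannot judge the call.

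Polk encodes DNA polymerase kappa, which copies past damaged bases. It read 8.22, 8.01 and 8.10 in knockout and 7.65, 7.72 and 7.74 in wild type. The groups lay well apart, and Polk rose by 0.41 (SE 0.07, limma adjusted p = 0.0109). Without wild-type replicate 1 the difference was 0.38 (limma adjusted p = 0.0586), and with the choroid plexus covariate it was 0.36 (limma adjusted p = 0.0765).

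Ddit4, a stress gene whose protein REDD1 restrains mTORC1, read 9.10, 9.29 and 9.13 in knockout and 9.46, 9.54 and 9.47 in wild type. Knockout replicate 2 was the nearest to the wild-type values and still below them, and Ddit4 fell (difference -0.32, SE 0.06, limma adjusted p = 0.0160). Trp53i11, a gene named for its induction by p53, read 12.59, 12.56 and 12.50 in knockout and 12.78, 12.77 and 12.68 in wild type. It fell by a smaller amount, -0.20 (SE 0.05, limma adjusted p = 0.0324). Ddit4 lost its call when wild-type replicate 1, wild-type replicate 2 or knockout replicate 1 was dropped (limma adjusted p = 0.0613, 0.0644 and 0.0612), and Trp53i11 without any single array except wild-type replicate 3 (limma adjusted p = 0.0581 to 0.151). Both also lost it with the choroid plexus covariate, at differences of -0.23 for Ddit4 and -0.18 for Trp53i11 (limma adjusted p = 0.111 and 0.161), and with no trend in the prior variance (limma adjusted p = 0.0710 and 0.139).

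**Figure D5:**
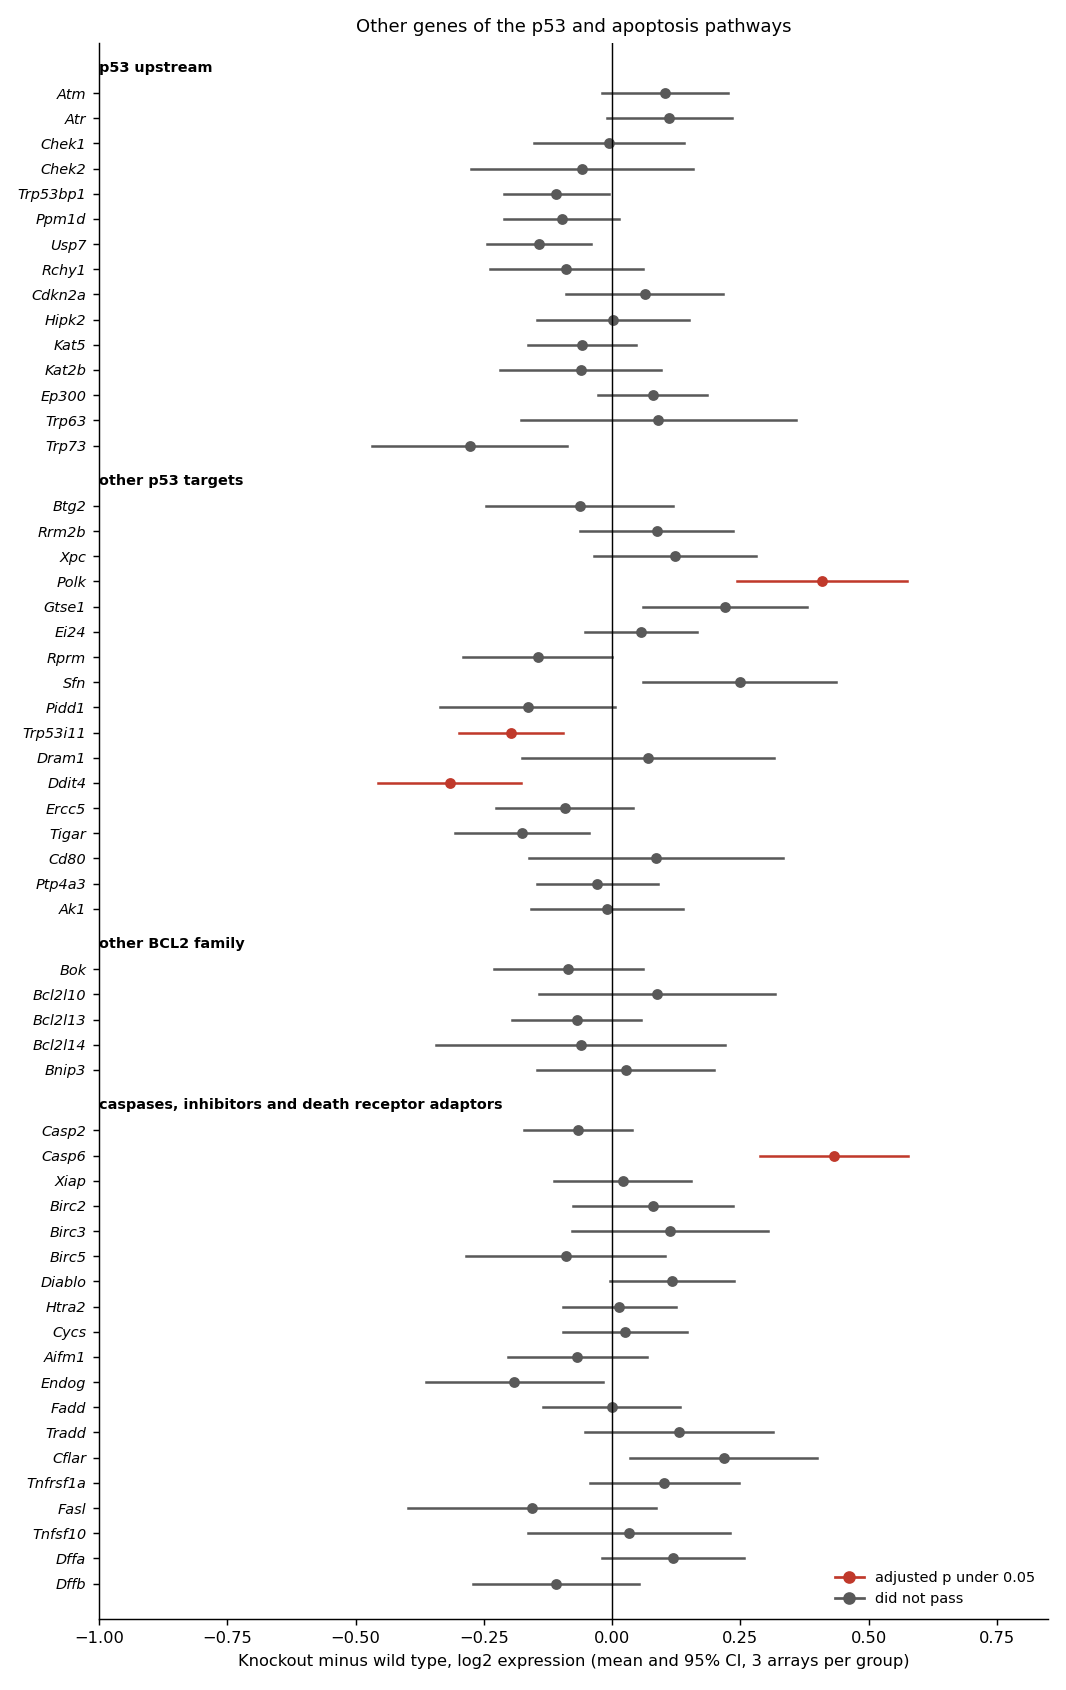
Difference between knockout and wild type for the 56 measured genes of the wider p53 and apoptosis lists (horizontal axis: knockout minus wild type, log2; points: means; bars: 95% confidence intervals; 3 arrays per group). In red are the genes that passed: Casp6 and Polk to the right at 0.43 and 0.41, Ddit4 and Trp53i11 to the left at -0.32 and -0.20.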

How the data were processed

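The deposited values are log2 expression values, 1 per probe set and array, for 3 knockout and 3 wild-type samples. Per the submitters' processing notes, RMA and the oligo package were used. Any centring, filter or genome build is not given in the sources. Of 41345 probe sets, 23521 have 1 gene symbol in GEO's platform annotation, 1814 several and 16010 none. The values were tested as deposited, for 22180 genes, with R 4.3.3 and its package limma 3.58.1 (lmFit and eBayes, prior variance following brightness; two-sided; Benjamini-Hochberg over all genes). Differences are knockout minus wild type; "rose" and "fell" mean an adjusted p under 0.05. Array medians ran from 7.25 to 7.29 in knockout and from 7.25 to 7.26 in wild type, correlations were 0.990 to 0.992 within groups and 0.987 to 0.990 between them, and the number of arrays limits the precision. No detection measure came with the values.

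Members and lists were chosen with earlier results of these data known. Members that passed, whose groups did not overlap, or that are core genes (Mdm2, Cdkn1a, Bbc3, Bcl2, Bcl2l1, Mcl1) are given by array, Ccng1 and Sesn1 for their promoter element, and Plk2 after its values were seen; from the wider lists, genes that passed. In all 18 alternatives were run: priors, dim genes, scaling, array weights, replicate block, probe sets, thresholds, choroid plexus and single arrays left out. The check of replicate numbers is given with them. The fit and the promoter search were tested on simulated data. Promoters are from RefSeq (GRCm38.p6).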

Additional observations from a re-analysis of the deposited data

How the results depend on the processing

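Members that rose were 0 in the fit as reported, 1 with a robust prior, with dim genes left out or at an adjusted p under 0.1 (Tnfrsf10b each time), and 0 to 1 with single arrays left out. Members that fell were 1 as reported, 0 without a trend in the prior variance, at an adjusted p under 0.01, with the choroid plexus covariate or without the arrays with Ttr above 10, and 0 to 1 with single arrays left out. Wider list genes that rose were 2 as reported, 1 at an adjusted p under 0.01 or with the choroid plexus covariate, 0 without the arrays with Ttr above 10, and 1 to 2 with single arrays left out; those that fell were 2 as reported, 0 without a trend, at an adjusted p under 0.01, with that covariate or without those arrays, and 0 to 2 with single arrays left out. The members called with single arrays left out were not always the same. Eda2r fell without knockout replicate 1 or 2, and Cdkn1a fell without wild-type replicate 3, where Eda2r did not pass. Tnfrsf10b rose without knockout replicate 1, Perp without knockout replicate 2 and Casp8 without wild-type replicate 3. The fits without arrays hold fewer samples, and otherwise the cause was not tested. The labels do not say whether the replicate numbers pair the arrays. Deviations of same-numbered arrays from their group means correlated at 0.01, 0.03 and -0.13, and those of differently numbered arrays at -0.14 to 0.12. With 3 arrays per group these values cannot settle it. With the replicate block 2 members rose (Tnfrsf10b and Casp8). Over all genes 723 rose and 1078 fell with the block, against 604 and 875 as reported.

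Members that changed sign were all near 0, and none of them passed under any alternative. Mdm4 was 0.014 after repeated quantile normalization, 0.009 with array weights and 0.032 with the choroid plexus covariate. Ccng2 was 0.003 with array weights and 0.006 with the covariate, and Bcl2 0.007 with array weights. Bcl2l2 was 0.011 with array weights, 0.021 with the covariate and 0.045 without the arrays with Ttr above 10. Bad was -0.008 after median centring, -0.010 after quantile normalization and -0.009 with array weights. Without the arrays with Ttr above 10, Apaf1 was 0.048 and Casp9 -0.036, and with the covariate Casp9 was -0.027. With single arrays left out, the ranges were -0.052 to 0.018 (Mdm4), -0.038 to 0.007 (Ccng2), -0.013 to 0.095 (Trp53inp1), -0.022 to 0.058 (Aen), -0.118 to 0.020 (Bcl2), -0.042 to 0.042 (Bcl2l2), -0.010 to 0.046 (Bak1), -0.018 to 0.112 (Bid), -0.046 to 0.065 (Bad), -0.050 to 0.035 (Apaf1) and -0.002 to 0.069 (Casp9).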
